A study of Danio rerio with 6 samples.

Results

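Fibrinogen is the plasma protein that thrombin turns into the fibrin meshwork of a clot, and it bridges activated platelets by binding the integrin αIIbβ3. Each molecule is built from a pair of each of 3 chains, Aα, Bβ and γ, which are encoded by separate genes. In vertebrates the chains are made mainly by hepatocytes, which secrete the assembled protein. Mammalian platelets carry fibrinogen in their granules, most of it taken up from plasma. Thrombocytes are the nucleated cells that do the work of platelets in fish, and the alpha subunit of the fibrinogen receptor, itga2b, is their standard marker.

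The 3 chain genes of the zebrafish were selected by Ensembl identifier, as 3 of the 32520 genes in the count table: fga (ENSDARG00000020741, Aα chain), fgb (ENSDARG00000008969, Bβ chain) and fgg (ENSDARG00000037281, γ chain). In the RefSeq annotation of another zebrafish assembly (GRCz12tu) the 3 genes lie on the same chromosome. There fga and fgb are separated by 1 gene, and fgg lies 359 genes away from fga. Overlap of reads between fga, fgb and the gene between them was not checked.

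The libraries were made from thrombocytes sorted by flow cytometry from larvae at 5 days post fertilization. Larvae of both groups carried the transgene -6.0itga2b:EGFP, a green fluorescent protein under a promoter fragment of itga2b. The control group (n = 3 libraries) also carried -6.0itga2b:tagRFP, a red fluorescent protein under that fragment. The miR-150 group (n = 3 libraries) carried -6.0itga2b:miR-150-tagRFP in its place, which adds the microRNA miR-150 to the red reporter. All larvae were kept in 1-phenyl 2-thiourea to block pigment, cells positive for both colours were collected, and RNA was amplified with a kit for ultra-low input. The series title concerns drugs against the platelet receptor P2Y12, and the comparison asks which transcripts differ when thrombocytes carry more miR-150.

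The libraries held between 12972258 and 22150519 counts. The floor of detection was set at 3 counts, which is 0.135 to 0.231 CPM (counts per 1000000 counts of the library). All 7 thrombocyte markers matched were detected in every library, with a summed level of 6507 to 9482 CPM in controls and 2012 to 8128 CPM in miR-150 libraries, where replicate 3 was the lowest. The table row of the microRNA precursor, mir150, held 0 counts in all 6 libraries, so the overexpression could not be checked here. Control replicate 3 stood apart for liver genes. The 19 hepatocyte markers matched summed to 5668 CPM there, against 102 and 913 CPM in control replicates 1 and 2 and 49.0 to 1002 CPM in the miR-150 libraries. The genotype comparisons of the chains are therefore given with and without control replicate 3.

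Fibrinogen transcripts were abundant in a single library, control replicate 3, and scarce in the other 5. The Aα chain gene fga had 46, 0 and 2133 counts in control replicates 1, 2 and 3, or 2.24, 0 and 123 CPM. In miR-150 replicates 1, 2 and 3 it had 2, 28 and 89 counts, or 0.115, 1.26 and 5.36 CPM. Control replicate 3 was 23.0-fold above the next library, miR-150 replicate 3. Control replicate 2 had no read, and the ranges of the groups overlapped. In bulk samples such as these, fewer cells of a type and less RNA per cell cannot be told apart.

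The Bβ chain gene fgb followed the same order of libraries. It had 37, 0 and 1265 counts in control replicates 1, 2 and 3, or 1.80, 0 and 73.0 CPM. In miR-150 replicates 1, 2 and 3 it had 0, 15 and 61 counts, or 0, 0.677 and 3.67 CPM. Control replicate 3 was again the highest, 19.9-fold above miR-150 replicate 3, and the groups overlapped.

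The γ chain gene fgg was also highest in control replicate 3 but was found in other libraries than fga and fgb. It had 0, 21 and 1955 counts in control replicates 1, 2 and 3, or 0, 1.62 and 113 CPM. In miR-150 replicates 1, 2 and 3 it had 26, 0 and 0 counts, or 1.50, 0 and 0 CPM. Control replicate 3 was 69.7-fold above control replicate 2, and again the groups overlapped. A count of 0 in a library allows a level of up to its 3-count floor. Control replicate 3 held 92.8% of all fga counts in the series, 91.8% of those of fgb and 97.7% of those of fgg.

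**Figure D1:**
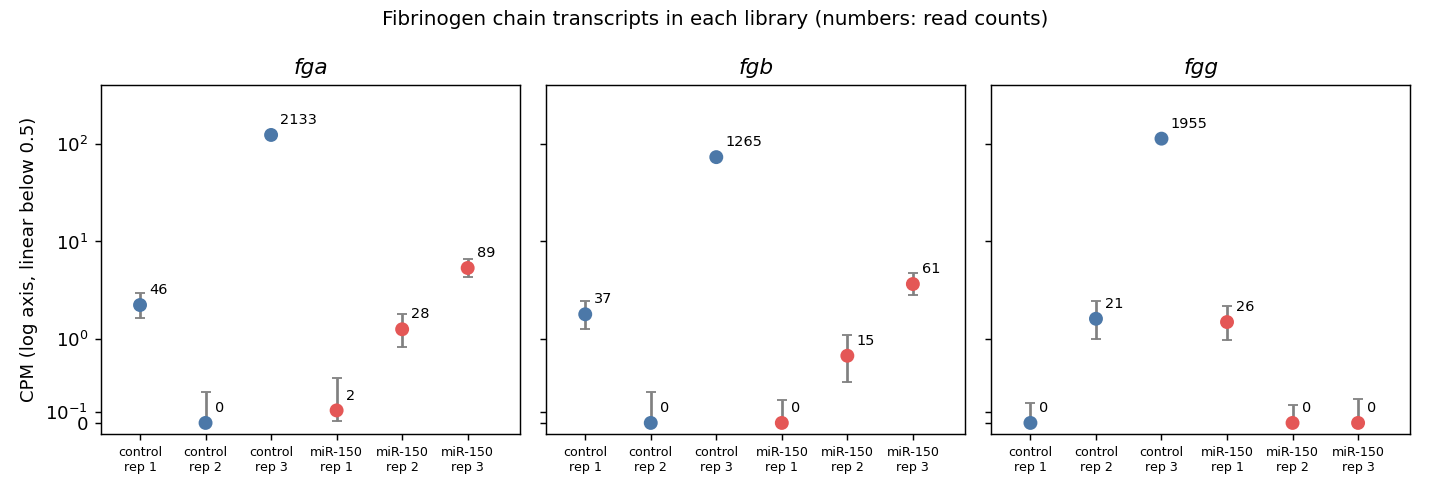
CPM of fga, fgb and fgg in each library (vertical axis logarithmic above 0.5 CPM and linear below), with read counts beside the points; blue points are controls, red points miR-150 libraries, and bars are exact Poisson 95% intervals that cover counting error only. Control replicate 3 is the highest point in each panel, at 73.0 to 123 CPM, and no other library exceeds 5.36 CPM.

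All 3 chains were present together only in control replicate 3. In the other libraries fga and fgb kept together, and fgg was found apart from them. Reads of fga outnumbered those of fgb by a ratio of 1.24 to 1.87 in the 4 libraries that held both, while the fga level varied 97.4-fold among those libraries. The SD of the log2 ratio of fga to fgb was 0.26 (n = 4 libraries). Over all 6 libraries, those without fgb included, the SD of log2 CPM was 3.56 for fga, 3.46 for fgb and 3.83 for fgg. The SD of the ratio and those of the levels thus cover unlike sets of libraries. Ratios between the genes are in reads and were not scaled to transcript length, so only their change between libraries can be read.

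In control replicate 1 there were 83 fga and fgb reads together and 0 fgg reads. At the ratio seen in control replicate 3, 47.8 fgg reads would go with them. miR-150 replicate 2 had 43 fga and fgb reads and miR-150 replicate 3 had 150, again with 0 fgg reads, where the ratio of control replicate 3 gives 24.7 and 86.3. The reverse held in the remaining libraries. Control replicate 2 had 21 fgg reads and none of fga or fgb, where that ratio gives 36.5, and miR-150 replicate 1 had 26 fgg reads and 2 of fga, where it gives 45.2.

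As a share of the reads of the 3 genes, fgg made up 36.5% in control replicate 3 (exact Clopper-Pearson 95% interval 35.2 to 37.8). It made up 100% in control replicate 2 (interval 83.9 to 100) and 92.9% in miR-150 replicate 1 (interval 76.5 to 99.1). In control replicate 1, miR-150 replicate 2 and miR-150 replicate 3 the share was 0, from 0 of 83, 43 and 150 reads. The upper ends of their intervals were 4.35%, 8.22% and 2.43%. The interval of control replicate 3 thus overlapped that of no other library. These intervals cover counting error only. The RNA was amplified before sequencing and the handling of duplicate reads is not given in the sources used here, so a few original molecules can stand behind each of the low counts.

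**Figure D2:**
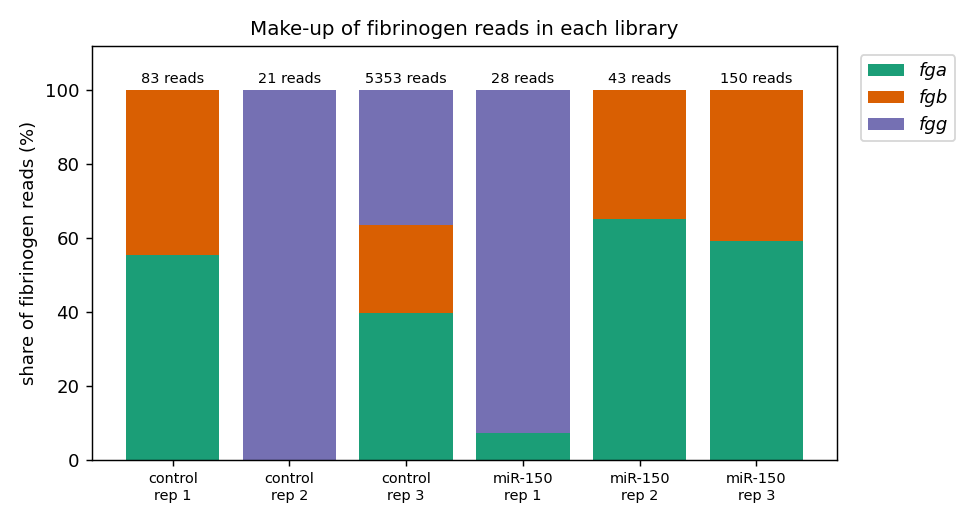
Share of fga, fgb and fgg among the reads of the 3 genes in each library, in percent, with the number of reads above each bar. All 3 colours are present only in control replicate 3; the other bars hold fga and fgb (control replicate 1, miR-150 replicates 2 and 3), fgg alone (control replicate 2) or fgg with 2 reads of fga (miR-150 replicate 1).

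Both kinds of library occurred in each genotype. The share of fgg averaged 45.5% ± 50.6 over controls and 31.0% ± 53.6 over miR-150 libraries (SD, n = 3 each). The difference was -14.6 percentage points, smaller than either SD (two-sided exact permutation test of the difference, p = 0.7, adjusted over the 3 chains p = 1). It was -19.0 without control replicate 3, but 12.7 without control replicate 2 and 0.921 without miR-150 replicate 2 or 3, so its direction depended on the library left out. The mean share of fga was 31.8% ± 28.6 and 43.9% ± 31.9, in the same order (two-sided exact permutation test, p = 0.5, adjusted p = 1). That of fgb was 22.7% ± 22.3 and 25.2% ± 22.0 (two-sided exact permutation test, p = 1, adjusted p = 1). The smallest p that 3 libraries against 3 allow is 0.1.

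The profile over the 6 libraries was also compared between genes, as the root mean square distance between centred log2 CPM values. Of the other 15721 genes tested, fgb was the nearest to fga (distance 0.32) and fga the nearest to fgb. The third chain was far from both: fgg ranked 10769 in nearness to fga and 11046 in nearness to fgb. The gene nearest to fgg was pvalb5, a parvalbumin (distance 0.37). At counts this low the distance rests largely on which libraries are at 0.

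In the genotype comparison none of the 3 chains passed the test. The level of fga averaged 41.8 ± 70.4 CPM over controls and 2.25 ± 2.75 CPM over miR-150 libraries (SD, n = 3 each). The log2 fold change, miR-150 minus control, was -3.71 with a standard error of 2.37 (edgeR quasi-likelihood test, Benjamini-Hochberg adjusted p = 0.988). For fgb the means were 24.9 ± 41.6 and 1.45 ± 1.95 CPM (SD, n = 3 each), and the log2 fold change was -3.59 with a standard error of 2.50 (edgeR adjusted p = 0.988). For fgg they were 38.1 ± 64.7 and 0.499 ± 0.865 CPM (SD, n = 3 each), and the log2 fold change was -6.16 with a standard error of 2.94 (edgeR adjusted p = 0.967).

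The background of this comparison was 0 calls among 15722 genes tested, or 0%, with 855 genes at an unadjusted p below 0.05. The unadjusted p was 0.159 for fga, 0.193 for fgb and 0.0732 for fgg in the same edgeR fit. The DESeq2 Wald test called 254 genes, or 1.62% of those tested. It gave no p-value for 290 genes, all 3 chains among them, so it neither called the chains nor left them uncalled.

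The sign of the difference for fga and fgb, and most of its size for fgg, rested on control replicate 3. Without it the log2 fold change was 1.03 with a standard error of 2.55 for fga, 0.72 with a standard error of 2.89 for fgb and -0.69 with a standard error of 3.11 for fgg (edgeR adjusted p = 1.00 for each). The mean of control replicates 1 and 2 was then 1.12 CPM for fga, 0.900 CPM for fgb and 0.809 CPM for fgg. With any other library left out, all 3 log2 fold changes were negative and none passed the test.

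**Figure D3:**
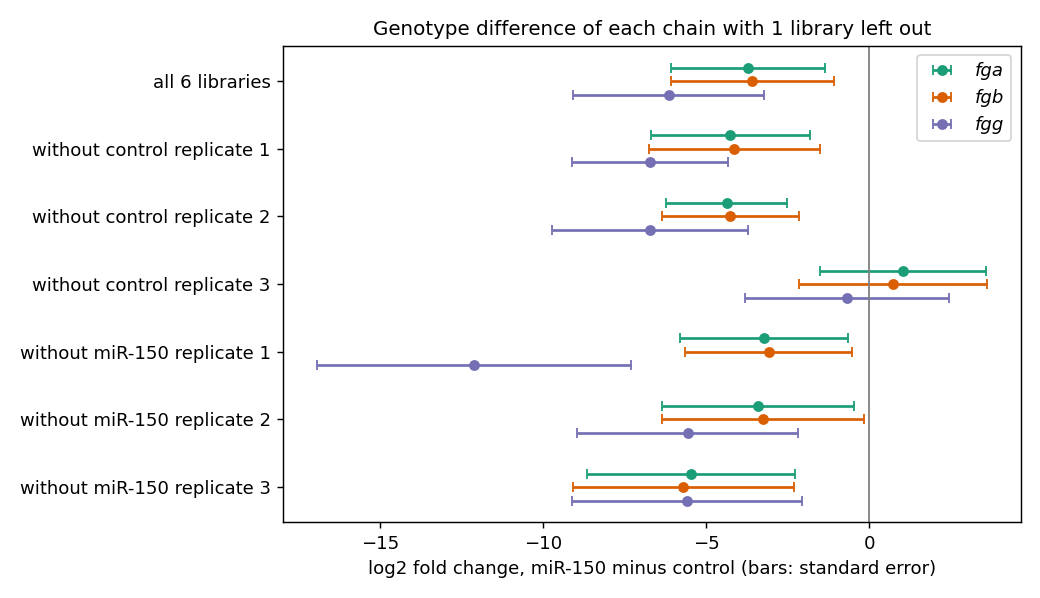
Log2 fold change of fga, fgb and fgg (miR-150 minus control, edgeR) with all 6 libraries and with each library left out in turn. Bars are standard errors derived from the F statistic of the test. Without control replicate 3 the points lie at 1.03, 0.72 and -0.69, and in every other fit they lie below 0; the fgg value of -12.13 without miR-150 replicate 1 is set against 2 libraries at 0 counts, where the fitted size has no bound.

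Most of the liver genes listed, like the chains, were highest in control replicate 3. Of the 25 hepatocyte markers listed, 19 were matched and all 19 had counts. Control replicate 3 held each of the 19 above 3 counts, whereas 8 to 14 of them were above 3 counts in any other library. Outside control replicate 3 the sum of all 19 did not follow the chains. It was 1002 CPM in miR-150 replicate 1 and 102 CPM in control replicate 1, where the chains summed to 1.61 and 4.04 CPM. In 17 of the 19, control replicate 3 was at least 8-fold above every other library and at 5 CPM or more. By that rule it led 240 of the 23046 genes with any count, or 1.04%, and all 3 chains were among the 240. The other libraries led 4 to 171 genes by the same rule and none of the chains.

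Transferrin (tfa), the iron carrier of plasma, had 15146 counts in control replicate 3 and 0 to 189 in the other libraries. The apolipoprotein gene apoa2 had 23430 counts there and 220 to 812 elsewhere, and the fetuin gene fetub had 21461 there and 57 to 414 elsewhere. Some defining markers were at 0 in several other libraries. The complement gene c3a.1 had 6281 counts in control replicate 3 and 0, 1, 18, 0 and 0 in control replicates 1 and 2 and miR-150 replicates 1 to 3. The fetuin gene ahsg1 had 132 counts in control replicate 3 and 0 in each of the other 5 libraries. The 2 markers outside this pattern were rbp4, the plasma retinol carrier, with 11433 counts in control replicate 2 and 10534 in control replicate 3, and apobb.1, an apolipoprotein B gene, with 9018 counts in miR-150 replicate 1 and 5021 in control replicate 3.

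The summed fibrinogen reads were set against the reads of the 17 markers that control replicate 3 led. For each 100 reads of these markers there were 5.56, 5.04 and 6.47 fibrinogen reads in control replicates 1, 2 and 3. There were 4.11, 5.32 and 10.7 in miR-150 replicates 1, 2 and 3. The highest of these ratios was 2.60 times the lowest, while the summed fibrinogen level in CPM varied 191-fold. The single chains did not keep such a ratio. Per 100 marker reads there were 0 to 6.35 reads of fga, 0 to 4.35 of fgb and 0 to 5.04 of fgg. The 17 genes were picked for their level in control replicate 3, so the summed ratio is a description. Its narrow range was seen with that choice of markers and with the chains summed, and what made it narrow was not tested. Against all 19 markers, rbp4 and apobb.1 included, the summed ratio ran from 0.161 to 5.45 fibrinogen reads per 100. The part that liver RNA had in the chain levels was not tested.

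**Figure D4:**
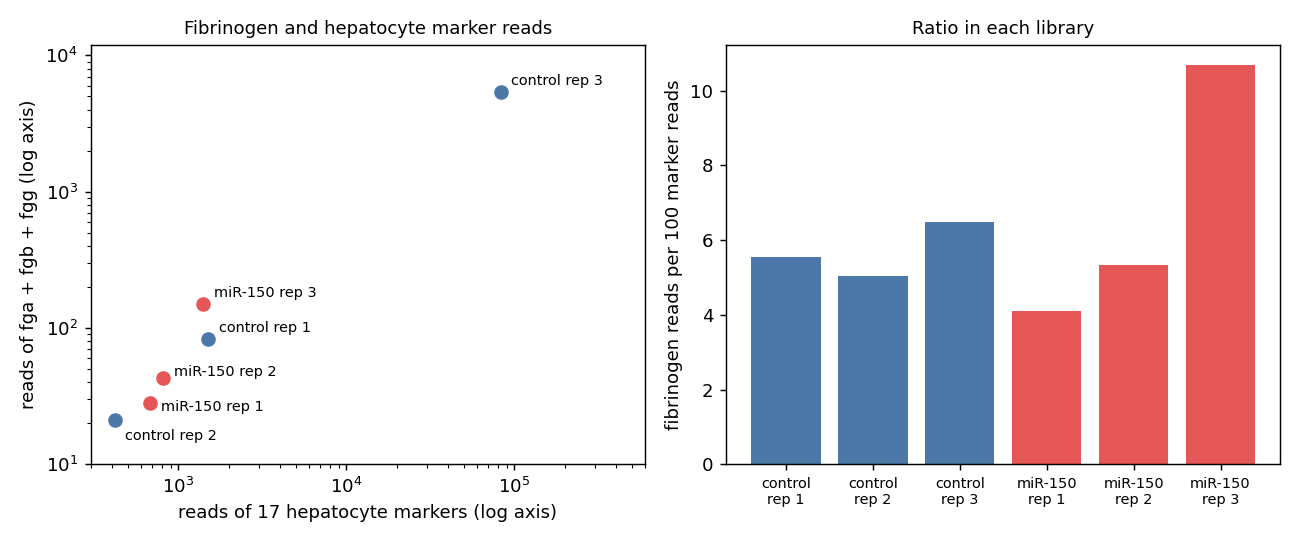
Left, summed reads of fga, fgb and fgg against summed reads of 17 hepatocyte markers in each library, both axes logarithmic. The 17 were picked for their level in control replicate 3. Right, summed fibrinogen reads per 100 marker reads, with the axis from 0. Blue marks controls and red miR-150 libraries; the libraries spread from 21 to 5353 fibrinogen reads and their ratios from 4.11 to 10.7.

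The genes with the profile most like the mean of the 3 chains were sought among 11063 genes with a mean of at least 5 CPM. The nearest was apoa1b, an apolipoprotein A-I gene (distance 0.61 in log2 units over the 6 libraries), with 36635 counts in control replicate 3 and 261 to 817 elsewhere. It was followed by apoa2 (0.72), the liver fatty acid binding protein gene fabp10a (0.76), the carboxylesterase gene ces3 (0.89), fetub (1.01), an apolipoprotein B gene paired with the symbol APOB (1.15), the carboxylesterase gene ces2a (1.18) and SERPINC1, which encodes antithrombin (1.26). Of these 8 genes, 4 were on the hepatocyte list and SERPINC1 was on the list of plasma clotting genes. All 8 were highest in control replicate 3, which follows largely from their being chosen by this profile.

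Several genes of plasma proteins that act on fibrinogen were also abundant mainly in control replicate 3. Of 21 genes listed for the formation and removal of clots in plasma, 14 were matched to 1 identifier and 12 had counts in some library. Control replicate 3 had the highest CPM for 11 of the 12, in some cases by little. There f5 was at 1402 CPM, against 1376 CPM in control replicate 1. The gene pros1 was at 28.5 CPM there, against 23.6 CPM in miR-150 replicate 1. The share of all genes that were highest in control replicate 3 was not counted, so the 11 have no background. By the 8-fold rule control replicate 3 led 7 of the 12, against 1.04% of all genes. The 5 it did not lead by that rule were f5, f8, pros1, f10 and cpb2. Prothrombin (f2), whose active form cleaves fibrinogen to fibrin, had 0, 14 and 1393 counts in control replicates 1, 2 and 3 and 27, 41 and 0 in miR-150 replicates 1, 2 and 3. Control replicate 3 was 43.4-fold above the next library.

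Plasminogen (plg), whose active form dissolves fibrin, had 0, 19 and 2830 counts in control replicates 1, 2 and 3 and 2, 40 and 169 in miR-150 replicates 1, 2 and 3. Antithrombin (serpinc1), which inhibits thrombin, had 81, 58 and 1917 counts in controls and 42, 20 and 40 in miR-150 libraries, in the same order. The other genes that control replicate 3 led were serpinf2a and serpinf2b, which encode the plasmin inhibitor, serpind1, a thrombin inhibitor, and habp2, a plasma protease. Each of these was at 0 to 10 counts in any other library and at 250 to 1195 counts in control replicate 3.

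Coagulation cofactors had another distribution. Factor V (f5), a cofactor of thrombin formation, had 28297, 16237 and 24297 counts in control replicates 1, 2 and 3 and 22878, 25330 and 3662 in miR-150 replicates 1, 2 and 3. Factor VIII (f8) had 1281, 551 and 1195 counts in controls and 1853, 1259 and 36 in miR-150 libraries. Both were lowest in miR-150 replicate 3, the library with the lowest summed thrombocyte markers. Of the 7 genes of the plasma list that were tested, 0 were called in edgeR, and their median log2 fold change was -1.05, beside 0.044 over all genes. Without control replicate 3 the list's median was 0.092 over 7 genes tested.

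Several cell-bound clotting genes were abundant in every library. Of 14 genes listed, 8 were matched and 7 had counts. The gene of the receptor subunit itga2b had 54405 to 117736 counts in controls and 17478 to 93433 in miR-150 libraries. The gene of the von Willebrand receptor subunit gp1bb had 13783 to 30643 counts in controls and 7270 to 18060 in miR-150 libraries. The gene of the fibrin cross-linking enzyme subunit f13a1b had 3390 to 7626 counts in controls and 863 to 4656 in miR-150 libraries. The groups overlapped for each of these genes, in counts and in CPM. For gp9, a platelet glycoprotein gene, they overlapped in counts but not in CPM. It was at 111 to 163 CPM in controls and 76.1 to 102 CPM in miR-150 libraries. These CPM are scaled to library totals only. Divided by the TMM factors of the edgeR fit, the groups overlapped for gp9 too. Its log2 fold change was -0.43 with a standard error of 0.39 (edgeR adjusted p = 0.988). How many of all genes were separated in this way was not counted. The 6 genes tested had a median log2 fold change of -0.50, and 0 were called.

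A different pattern was seen for vwf, von Willebrand factor, which tethers platelets to injured vessel walls. It had 881 counts in control replicate 3, 2 in miR-150 replicate 2 and 0 in the other 4 libraries. Its level in control replicate 3 was at least 220-fold higher than the floor of each other library. Tissue factor (f3a), the trigger of clotting, was also highest there, at 546 counts, against 0 to 117 elsewhere. That was 4.67-fold above the next library, short of the 8-fold rule. The other tissue factor gene, f3b, was highest in control replicate 2, at 55.6 CPM, against 44.7 CPM in control replicate 3.

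**Figure D5:**
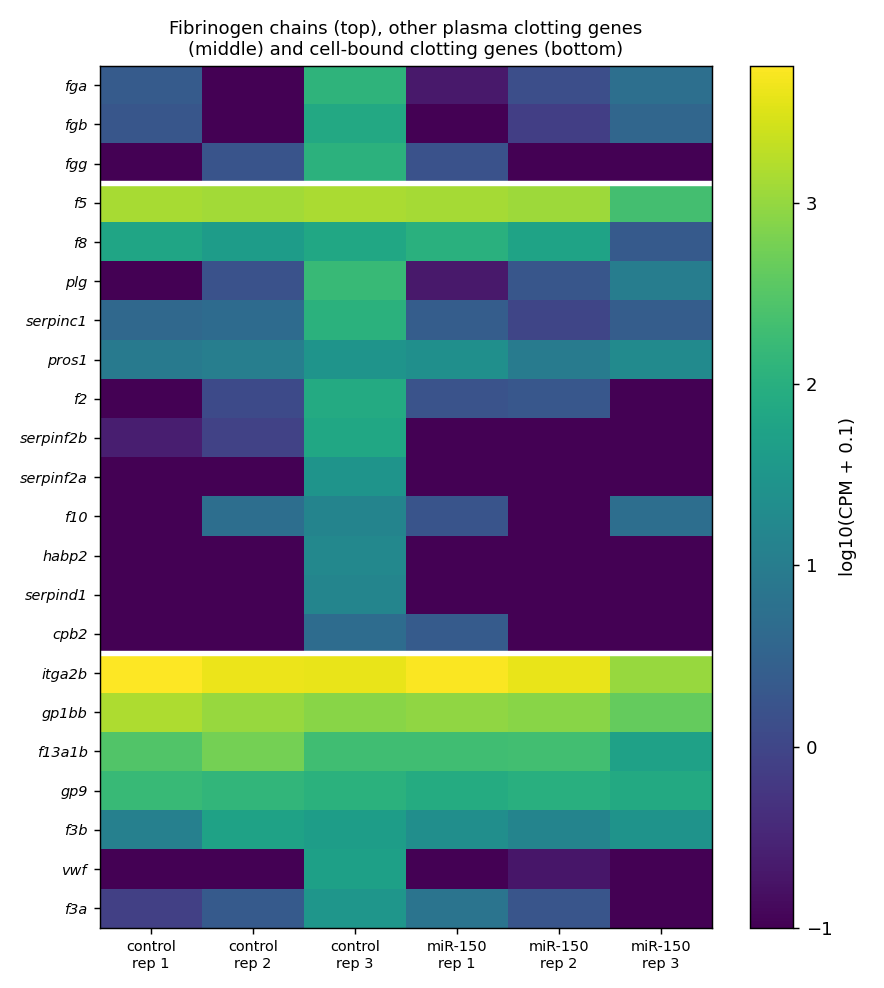
Log10 of CPM + 0.1 for the fibrinogen chains (top), the other plasma clotting genes with any count (middle) and the cell-bound clotting genes with any count (bottom), in each library. The column of control replicate 3 is the only one in which all 3 chains are bright, and f5, itga2b and gp1bb are bright across the libraries, with miR-150 replicate 3 the dimmest, where f8 is at 2.17 CPM.

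Fibrinogen belongs to the acute phase proteins, which the liver raises under interleukin 6 signalling in mammals. Of 13 genes listed for this response, 8 were matched and 6 had counts. The iron hormone gene hamp had 492 counts in control replicate 3 and 0 to 7 elsewhere, and a2ml, an alpha-2-macroglobulin-like gene, had 2569 there and 0 to 56 elsewhere. Of the signalling genes, stat3 had 1335 to 2617 counts in controls and 453 to 971 in miR-150 libraries, or 73.5 to 151 and 27.3 to 53.7 CPM. Its groups thus did not overlap, but it was not called (log2 fold change -1.17, standard error 0.37, edgeR adjusted p = 0.786). The share of all genes whose groups did not overlap was not counted, so this separation cannot be read as particular to stat3. The receptor subunit gene il6st had 667 to 2799 counts in controls and 333 to 2630 in miR-150 libraries. The receptor gene il6r had 58, 0 and 71 counts in control replicates 1, 2 and 3 and 119, 198 and 0 in miR-150 replicates 1, 2 and 3, and the cytokine gene il6 had 0 counts in all 6 libraries. In edgeR 0 of the 4 genes tested were called, with a median log2 fold change of -0.72, which was 0.14 without control replicate 3.

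Other genes with a fibrinogen-like domain or of the angiopoietin-like group were mostly spread otherwise. Of 15 genes listed, 10 were matched, the 3 chains included. The gene angpt1, a ligand of the Tie2 receptor, had 5431, 2241 and 2745 counts in control replicates 1, 2 and 3 and 2428, 4199 and 1060 in miR-150 replicates 1, 2 and 3. The fibrinogen-like gene fgl1b had 242 to 461 counts in controls and 145 to 668 in miR-150 libraries, and angptl4 had 335 to 3376 and 470 to 2489. In edgeR 0 of the 7 genes tested were called. Their median log2 fold change, the 3 chains included, was -3.59, which is the value of fgb itself and not a result about the family. The tested genes that are not chains were at -0.88 for angptl4, -0.42 for angpt1, 0.30 for fgl1b and -8.45 for fgl1. The fgl1 value is set against miR-150 libraries at 0 counts, where the fitted size has no bound. The list's median, chains included, was -0.66 without control replicate 3.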

How the data were processed

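The authors deposited raw read counts per Ensembl gene, 1 column for each of the 6 libraries, and all columns were used. The submitters' processing notes name STAR 2.7.10b, HTSeq 0.11.3 and the build GRCz11. The strand setting and the handling of duplicate reads are not given in the sources used here. Identifiers were paired with symbols for 29201 of 32520 genes, and listed symbols were matched without regard to letter case where 1 identifier carried them.

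CPM is the count divided by the library's total and scaled to counts per 1000000. Genotypes were compared in R 4.3.3 with edgeR 4.0.16 (filterByExpr, TMM scaling, glmQLFit, glmQLFTest, genotype as the only term), adjusting over all 15722 genes tested and calling a gene at an adjusted p below 0.05. The standard errors given were not fitted directly. Each is the absolute log2 fold change divided by the square root of the F statistic of the edgeR test. limma 3.58.1 and DESeq2 1.42.0 served as alternatives. Of the scripts, only the edgeR comparison was tested on simulated counts, in which no gene was set to peak in a single library. No 2 libraries agreed within sampling noise (chi-square per degree of freedom at least 100). Labels number the libraries as biological replicates, without saying how many larvae each pooled.

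The members and lists were chosen with earlier results of these data known. Genes named from a list are its 4 with the highest mean CPM, plus the 8 nearest in profile. The other genes named (f2, serpinf2a, serpinf2b, serpind1, habp2, vwf, f3a, f3b, pros1, f10, cpb2, c3a.1, ahsg1, apobb.1, il6, il6r, alas2, pvalb5, fgl1, cdx1b) were chosen after their values were seen. Promoter motifs, planned earlier, and levels per transcript length were not analysed here.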

Additional observations from a re-analysis of the deposited data

How the results depend on the processing

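In every edgeR and limma fit run, 0 genes were called and no chain passed the test; the DESeq2 Wald test called 254 genes and gave the chains no p-value, so that its direction, but not its call, can be compared. The log2 fold changes of fga, fgb and fgg were negative under DESeq2 size factors, upper-quartile scaling, total count scaling, no filter, limma voom with sample quality weights and the DESeq2 Wald test. Total count scaling moved the median of all genes from 0.044 to -0.15. With 1 library left out, the log2 fold change ranged from -5.46 to 1.03 for fga, from -5.71 to 0.72 for fgb and from -12.13 to -0.69 for fgg, and the number of genes called was 0 in each fit. The 2 reversals, of fga and fgb, came without control replicate 3. The summed fibrinogen level, miR-150 minus control, was -101 CPM, -84.3 CPM with TMM scaling, and -152 to 1.37 CPM with 1 library left out. The difference in share ranged from -3.77 to 30.5 percentage points for fga, from -8.92 to 15.0 for fgb and from -45.5 to 12.7 for fgg, so its sign depended on the library left out. The medians of the lists, in fits added after seeing the data, ranged from -4.95 to 0.53 for the hepatocyte markers and from -2.91 to 0.092 for the plasma clotting genes, and were above 0 only without control replicate 3.

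With the replicate block the log2 fold changes were -2.48 for fga, -2.98 for fgb and -6.19 for fgg, with 0 genes called. Deviations of same-numbered libraries correlated at -0.19, -0.10 and -0.038. The labels do not say what a replicate number shares, and these correlations cannot establish whether the libraries were paired. Shares per kilobase were not run. Outside control replicate 3 each chain had at most 89 counts in a library, which limits what their shares can show.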

Other observations

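Summed markers of 3 other tissues were each highest in another single library. Of 7 enterocyte markers matched, the summed level was 783 CPM in miR-150 replicate 1 and 17.4 to 106 CPM in the other libraries. There fabp2, the intestinal fatty acid binding protein gene, had 7628 counts, against 88 to 365 elsewhere. Other enterocyte markers led by less. The apolipoprotein gene apoa4b.1 was at 184 CPM there, against 92.0 CPM in control replicate 3. The marker cdx1b was at 10.7 CPM, against 8.43 CPM in miR-150 replicate 3. The 9 exocrine pancreas markers matched summed to 717 CPM in miR-150 replicate 2 and to 23.7 to 136 CPM elsewhere. The trypsinogen gene prss1 had 3472 counts there and 67 to 286 elsewhere. The 5 erythroid markers matched summed to 271 CPM in miR-150 replicate 3 and to 28.4 to 62.3 CPM elsewhere, with 2971 counts of the globin gene hbae3 against 17 to 773. That sum was carried by globin genes: the membrane skeleton gene epb41b was at 4.87 CPM there, against 12.4 CPM in miR-150 replicate 1, and the haem synthesis gene alas2 at 10.1 CPM, against 9.39 CPM in miR-150 replicate 2. The sum of the hepatocyte markers was highest in control replicate 3. None of the genes of these lists that were tested was called in edgeR, and the cause of these levels was not tested.

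Epidermal and muscle transcripts were spread more widely. The 11 epidermis markers summed to 675 CPM in control replicate 1 and to 3265 to 21335 CPM in the other libraries, and the 9 muscle markers to 969 to 2894 CPM. Both sums were highest in control replicate 3. The 6 myeloid markers matched summed to 18.1 to 91.1 CPM, and the matrix metalloproteinase gene mmp13a had 696 counts in miR-150 replicate 2 and 0 in the other 5 libraries.

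The row paired with the symbol P2RY12, the receptor named in the series title, had 0 counts in all 6 libraries, which allows a level of up to 0.135 to 0.231 CPM. Whether its transcripts escaped the counting was not tested.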
